A study of Drosophila melanogaster with 26 samples.

Results

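Mitochondrial ribosomal proteins were read here as 46 transcripts of 45 genes, out of 17130 rows of the expression table, of which 16623 carry a FlyBase transcript identifier and were tested. The members are the rows whose gene symbol is mRpL or mRpS followed by a digit: 28 transcripts of 28 large-subunit (mRpL) genes and 18 transcripts of 17 small-subunit (mRpS) genes. mRpS11 is the gene with more than 1 member, the transcripts mRpS11-RA and mRpS11-RB. RefSeq lists 73 mRpL and mRpS genes, and 28 of them are not analysed here. RNA was measured in 26 samples of 7 groups. Primordial germ cells (PGCs) of smaug-mutant embryos were collected at 1 to 3 h (3 samples), 3 to 5 h (3) and 5 to 7 h (4), wild-type PGCs at the same 3 ages (4 samples each), and wild-type somatic cells at 1 to 3 h (4). The wild-type stock carried VASA-GFP/CyO and PrDr/TM3,Sb in a w1118 background. Mutant embryos came from females with the smg1 allele over the deficiency Df(3L)Scf-R6, made from a VASA-GFP/CyO ; smg1/TM3,Sb stock and a deficiency stock balanced with TM3,Sb, and so lacked normal maternal supply of the RNA-binding protein Smaug. Every sample was pooled from many embryos and sorted by VASA-GFP, a reporter of germ cells that all groups share, with PGCs as the GFP-positive and somatic cells as the GFP-negative fraction. The labels and the methods call the replicates biological, and p-values measure the spread between these samples.

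Mitochondria carry their own ribosome, built of a large and a small subunit like the ribosome of bacteria. It translates the few mRNAs of the mitochondrial genome, which encode core subunits of the respiratory chain and of ATP synthase. Its RNAs come from the mitochondrial genome, whereas its proteins are encoded in the nucleus, made in the cytoplasm and imported. Some of these proteins have bacterial relatives, and others are found only in mitochondria. PGCs form at the posterior pole around maternal germ plasm and are transcriptionally silent at first. In the maternal-to-zygotic transition maternal mRNAs are cleared and zygotic transcription begins, and Smaug acts in both steps in the early embryo.

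Each value is a normalized array intensity, given on a log2 scale, so that a difference of 1 is a 2-fold change. Levels of different members are not compared, since each was read by its own probes. Sums over marker transcripts weight each marker by its own probe intensity, and the markers with the highest means are named for that reason. A transcript was called higher or lower where limma gave an adjusted p under 0.05 and a fold change above 2. The table gives identifiers without names, and members could be named only through lists that the study drew up from its wild-type arrays. These lists overlap. Of the members, 15 are on its list of transcripts that increase in wild type between 1 to 3 and 3 to 5 h (the increased-early list), 14 on its list of transcripts present in newly formed PGCs (the expressed list), 10 on the PGC-enriched and 4 on the increased-late list. Its lists of transcripts that stay constant in wild type hold 5 members for the early interval (stable-early) and 16 for the late one (stable-late). The decreased-early list holds 2 members, the decreased-late list 1 and the soma-enriched list 0. Counts in wild-type comparisons therefore rest on how members were named, and only the smaug arrays had no part in the naming. By the labels, smaug-mutant PGCs at 3 to 5 h and the somatic cells carried the dye Cy3 and the 5 other groups Cy5. The methods differ from this, assigning Cy5 to mutant and Cy3 to wild-type cells. With the labels' dyes, dye and group cannot be told apart in any comparison with either Cy3 group. Array distributions were made equal by quantile normalization, so levels are relative to the other transcripts of a sample, and fewer cells of a type and less RNA per cell cannot be told apart.

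The 4 samples of 5-to-7 h wild-type PGCs were unlike each other. Markers of somatic cells (7 of 23 named) summed, as the log2 of total intensity, to 15.32 in replicate 3 and 15.31 in replicate 4, whereas replicate 1 had 13.48 and replicate 2 had 13.33. The other PGC samples ranged over 11.73 to 14.57 and somatic cells over 16.33 to 16.61. Of the 7 markers, 4 were called lower in wild-type PGCs than in somatic cells at 1 to 3 h. By contrast, zen averaged 11.13 and tll 10.71 in those PGCs, against 10.73 and 9.98 in somatic cells. Cg25C had the highest mean in somatic cells (15.21). The PGC markers (8 of 10 named, 11 transcripts) summed to 15.86 in replicate 3 and 16.10 in replicate 4, 17.16 in replicate 1 and 17.10 in replicate 2, and 14.26 to 14.70 in somatic cells. Over the 1882 transcripts of the study's PGC-enriched list the sample median was 9.87 in replicate 3 and 9.98 in replicate 4, 11.09 in replicate 1 and 11.08 in replicate 2, and 9.88 to 9.91 in somatic cells. Over the 114 of its soma-enriched list it was 12.65 in replicate 3 and 12.44 in replicate 4, 9.41 in replicate 1 and 9.39 in replicate 2, and 13.07 to 13.14 in somatic cells. Counts of called members that rest on the 5-to-7 h wild-type group are given with each pair of replicates alone as well.

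All 46 members passed a filter on dim rows (a mean over the samples above that of all transcripts). Single member values ran between 7.89 and 15.57, and the array's control probes had a median of 4.06 to 4.83 in a sample. The median over the members was 11.28 to 11.67 in smaug-mutant PGCs at 1 to 3 h, 11.60 to 11.87 at 3 to 5 h and 11.68 to 12.16 at 5 to 7 h. In wild-type PGCs it was 10.70 to 11.01 at 1 to 3 h, 11.54 to 11.81 at 3 to 5 h and 11.49 to 12.37 at 5 to 7 h, and in somatic cells 10.89 to 11.08. The samples with the lowest medians were thus those of wild-type PGCs and somatic cells at 1 to 3 h, and the smaug-mutant samples of that age lay above both without overlap. This order rests in part on the naming through wild-type lists. For the 15 members on the increased-early list, sample medians at 1 to 3 h were 9.60 to 9.94 in wild-type and 10.92 to 11.14 in smaug-mutant PGCs. For the 14 on the expressed list they were 13.15 to 13.67 in wild-type and 12.99 to 13.43 in smaug-mutant PGCs.

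The large-subunit members were mRpL1, mRpL4, mRpL9, mRpL10, mRpL11, mRpL12, mRpL13, mRpL15, mRpL18, mRpL19, mRpL20, mRpL23, mRpL24, mRpL27, mRpL28, mRpL35, mRpL36, mRpL38, mRpL39, mRpL40, mRpL41, mRpL46, mRpL48, mRpL49, mRpL50, mRpL53, mRpL54 and mRpL55. The small-subunit members were mRpS2, mRpS5, mRpS6, mRpS9, mRpS10, mRpS11 (2 transcripts), mRpS14, mRpS16, mRpS17, mRpS18B, mRpS22, mRpS23, mRpS24, mRpS25, mRpS26, mRpS30 and mRpS31. Over 10 comparisons, 40 members were called at least once and 18 in 3 or more, mRpS24 in the most (6). The matching shares of all transcripts were not computed, and the counts rest in part on the naming through wild-type lists. The 6 members called in none were mRpL18, mRpL49, mRpL53, mRpS9, mRpS18B and mRpS22. The members did not move as one block. In the heat map those on the increased-early list were mostly pale or red in the smaug-mutant groups and mostly blue in 1-to-3 h wild-type PGCs, and most on the expressed list were blue in smaug-mutant PGCs at 3 to 5 h.

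**Figure D1:**
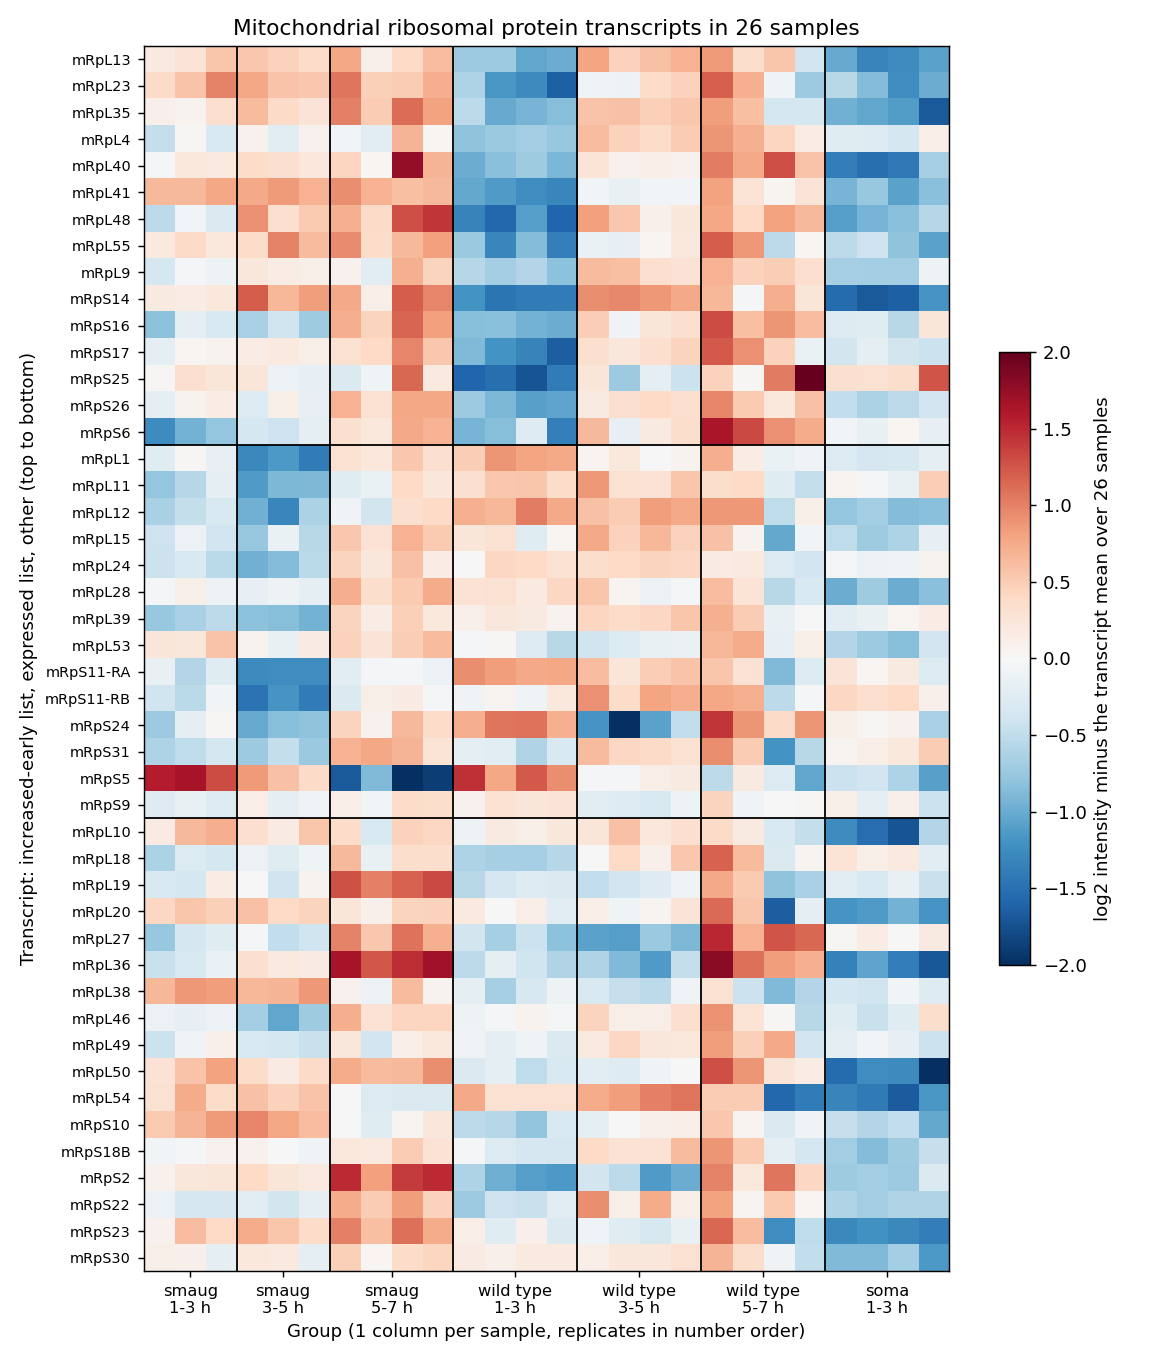
Each row is 1 of the 46 transcripts and each column 1 of the 26 samples, and the colour is the log2 intensity minus that transcript's mean over all samples (red above, blue below, limits -2 and 2). The upper block (15 members on the increased-early list) is mostly blue in wild-type PGCs and somatic cells at 1 to 3 h, and many rows of the middle block (14 on the expressed list) are blue in smaug-mutant PGCs at 3 to 5 h.

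PGCs were first set against somatic cells of the same age, a comparison that asks which transcripts the newly formed germ line holds at higher relative levels. Of the 46 members, 11 were higher in PGCs (23.9%), against 18.5% of all transcripts tested, and 1 was lower, against 17.5% of all. The median difference of PGCs minus somatic cells was 0.18 over the members and 0.15 over all transcripts. The higher members were mRpL1, mRpL10, mRpL12, mRpL20, mRpL28, mRpL50, mRpL54, mRpS5, mRpS23, mRpS24 and mRpS30. Of these 11, all but mRpS24 were named through the PGC-enriched list, so their direction was fixed by the naming. The PGC-enriched list holds 1882 transcripts and 10 members, the soma-enriched list 114 transcripts and 0 members. The counts of lower members therefore rest in part on the naming too. By the labels the PGCs carried Cy5 and the somatic cells Cy3. mRpL54, a large-subunit protein found in mitochondria but not in bacteria, stood at 12.90, 12.45, 12.44 and 12.44 in PGCs, against 10.82, 10.72, 10.48 and 10.98 in somatic cells (log2 difference 1.81, SE 0.17, adjusted p = 1.74e-05). mRpS5, a small-subunit protein whose bacterial relative takes part in accurate decoding, stood at 13.64, 12.97, 13.41 and 13.12 in PGCs, against 11.76, 11.80, 11.57 and 11.10 in somatic cells (log2 difference 1.73, SE 0.21, adjusted p = 0.0001). mRpL12, which forms the flexible stalk where translation factors bind, stood at 14.37, 14.33, 14.69 and 14.42 in PGCs and 12.89, 12.99, 12.80 and 12.84 in somatic cells (log2 difference 1.57, SE 0.14, adjusted p = 1.09e-05). The groups did not overlap for any of these 3. The lower member was mRpS25, a small-subunit protein particular to mitochondrial ribosomes, at 9.16, 9.23, 9.02 and 9.35 in PGCs, against 11.07, 11.05, 11.10 and 12.01 in somatic cells (log2 difference -2.12, SE 0.23, adjusted p = 4.3e-05). The PGC values all lay below those of somatic cells, among which replicate 4 stood apart on the high side. Without the fold limit 10 members were lower, against 25.3% of all transcripts.

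In wild-type PGCs, 15 of 46 members were higher at 3 to 5 h than at 1 to 3 h, the interval in which the zygotic genome of these cells is activated, against 9.02% of all transcripts. Both subunits took part, with 9 large-subunit and 6 small-subunit members. Since 15 is also the number of members named through the increased-early list, and these are the same transcripts, the count restates how they were named. Of the rest, 2 were lower (mRpS24 and mRpS5), against 8.22% of all transcripts. Both are on the decreased-early list, so their direction was fixed by the naming. Without the fold limit 24 members were higher and 4 lower, against 15.6% and 16% of all transcripts. The largest difference was that of mRpS14, a protein of the head of the small subunit, with 11.88, 11.92, 11.82 and 11.71 at 3 to 5 h, against 9.77, 9.49, 9.56 and 9.55 at 1 to 3 h (log2 difference 2.24, SE 0.13, adjusted p = 2.45e-05). This is 4.73-fold, and the 8 samples fell into separate ranges. mRpL48, a large-subunit protein particular to mitochondria, had 11.86, 11.59, 11.14 and 11.27 at 3 to 5 h and 9.71, 9.46, 9.94 and 9.45 at 1 to 3 h (log2 difference 1.82, SE 0.20, adjusted p = 0.000352). mRpS17, a small-subunit protein that in bacteria binds ribosomal RNA early in assembly, had 12.24, 12.15, 12.26 and 12.37 at 3 to 5 h and 11.04, 10.72, 10.58 and 10.27 at 1 to 3 h (log2 difference 1.60, SE 0.18, adjusted p = 0.000367). Neither pair of groups overlapped. The other 12 were mRpL4, mRpL9, mRpL13, mRpL23, mRpL35, mRpL40, mRpL41, mRpL55, mRpS6, mRpS16, mRpS25 and mRpS26, with differences between 1.01 (mRpL40) and 1.51 (mRpL13). PGC marker sums were 16.74 to 16.97 at 3 to 5 h and 17.74 to 17.87 at 1 to 3 h (0 of the 11 transcripts higher, 6 lower). The study lists osk, orb and gcl among mRNAs eliminated from PGCs, so decay and cell content cannot be told apart in these sums. Somatic marker sums were 14.16 to 14.57 at 3 to 5 h and 13.70 to 14.05 at 1 to 3 h (3 of the 7 somatic markers higher, 2 lower). The part of either marker set was not tested. The somatic markers with the highest means at 3 to 5 h were tll (12.78) and zen (12.36), whose means at 1 to 3 h were not higher in somatic cells than in PGCs.

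The same interval was then compared in smaug-mutant PGCs. None of the 46 members was higher in them at 3 to 5 h than at 1 to 3 h, against 5.35% of all transcripts. At an unadjusted p under 0.05 limma had 4 members higher, against 15.1% of all transcripts, and SAM, a permutation test named in the methods, called none higher, against 5.49% of all. The smaug arrays were not used in the naming. Of all 702 transcripts on the increased-early list, 30.9% were higher in smaug-mutant PGCs at 3 to 5 h and their median difference was 0.76, whereas 0 of the 15 members on it were called and their median was 0.17. The lower members were 2, against 5.56% of all transcripts, and without the fold limit 1 was higher (6.89% of all) and 5 were lower (8.64% of all). mRpL1, whose bacterial relative forms the stalk near the exit site of transfer RNA, had 12.96, 13.09 and 12.85 at 3 to 5 h and 14.002, 14.27 and 14.09 at 1 to 3 h (log2 difference -1.15, SE 0.16, adjusted p = 0.0108). mRpS11-RB, 1 of the transcripts of a protein of the small subunit's platform, had 13.18, 13.48 and 13.25 at 3 to 5 h and 14.25, 14.11 and 14.60 at 1 to 3 h (log2 difference -1.01, SE 0.19, adjusted p = 0.0217). Neither pair of groups overlapped. In each, the later samples carried Cy3 and the earlier ones Cy5 by the labels.

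**Figure D2:**
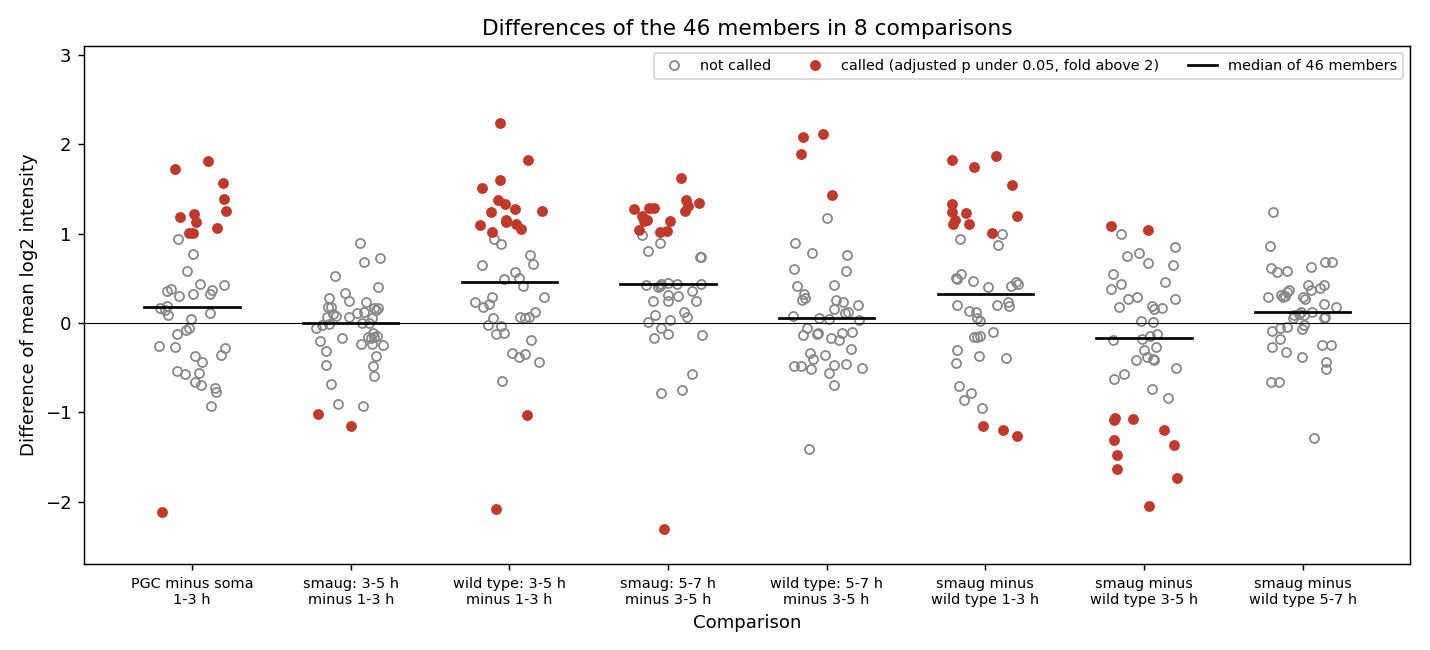
Each point is 1 of the 46 members, the y axis is the difference of mean log2 intensity in the comparison named on the x axis, filled points were called and black lines are medians. Between 3 to 5 and 1 to 3 h, 15 members were called higher in wild-type and 0 in smaug-mutant PGCs, and 10 were called lower in smaug-mutant than wild-type PGCs at 3 to 5 h.

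The difference between the genotypes in this change was tested as the change in smaug-mutant PGCs minus the change in wild-type PGCs. It was negative for 37 of 46 members, and 11 were called lower (less increase or more decrease in the mutant), against 3.24% of all transcripts. The count called higher was 1, against 3.85% of all, and 3 without the fold limit, against 5.01% of all. Of the 15 members on the increased-early list 10 were called lower, and the list as a whole had 25.1%. The 10 were mRpL4, mRpL13, mRpL23, mRpL35, mRpL41, mRpS14, mRpS16, mRpS17, mRpS25 and mRpS26. The 11th was mRpS11-RB, which had the most negative value (log2 difference -1.68, SE 0.24, adjusted p = 0.00244). For mRpS14 the change was 0.72 in smaug-mutant and 2.24 in wild-type PGCs (log2 difference -1.52, SE 0.20, adjusted p = 0.00189 for the difference between genotypes). For mRpS25 it was -0.20 in smaug-mutant and 1.28 in wild-type PGCs (log2 difference -1.48, SE 0.29, adjusted p = 0.00969). The wild-type arrays that enter this test also chose the list, and smaug-mutant PGCs at 3 to 5 h are the Cy3 group. Measured between 1 to 3 and 5 to 7 h, where all 4 groups carry Cy5, the difference between genotypes was below 0 for all 15 members on the list, with a median of -1.04. Over the 702 transcripts on the list the median was -0.39. Of the 15, 2 were called lower, against 12.8% of the 702 and 2.63% of all transcripts. The 1-to-3 h wild-type arrays that chose the list enter here too, so the sign rests in part on the naming. With replicates 1 and 2 of 5-to-7 h wild-type PGCs alone the difference was again below 0 for all 15 (median -1.16, 8 called lower, against 5.34% of all transcripts), and with replicates 3 and 4 alone for 14 (median -0.71, 3 called lower, against 11.7% of all). For these pairs the share over the 702 transcripts on the list was not computed.

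The starting levels differed between the genotypes. At 1 to 3 h, 12 of 46 members were higher in smaug-mutant than in wild-type PGCs, against 7.46% of all transcripts, and 3 were lower, against 6% of all (7 without the fold limit, against 10.1% of all). Both groups are Cy5 by the labels. Of the 15 members on the increased-early list 9 were higher, with a median difference of 1.11, whereas 18.9% of all 702 transcripts on that list were higher and their median difference was 0.01. The wild-type samples at 1 to 3 h enter both this comparison and the list. mRpL41, a large-subunit protein particular to mitochondria, had 11.23, 11.23 and 11.34 in smaug-mutant PGCs, against 9.55, 9.45, 9.33 and 9.28 in wild-type PGCs (log2 difference 1.86, SE 0.15, adjusted p = 0.000666). mRpL23, which in bacteria lies at the end of the tunnel through which the new protein leaves, had 11.10, 11.30 and 11.73 in smaug-mutant PGCs, against 10.11, 9.56, 9.45 and 9.10 in wild-type PGCs (log2 difference 1.82, SE 0.27, adjusted p = 0.00411). mRpS25 had 10.77, 11.07 and 10.98 in smaug-mutant PGCs and 9.16, 9.23, 9.02 and 9.35 in wild-type PGCs (log2 difference 1.75, SE 0.16, adjusted p = 0.00086). All mutant samples lay above all wild-type samples for these 3 transcripts. The somatic marker sums were 12.45 to 13.04 in smaug-mutant and 13.70 to 14.05 in wild-type PGCs of this age, and 5 of the 7 markers were lower in the mutant. The PGC marker sums were 18.20 to 18.30 in smaug-mutant and 17.74 to 17.87 in wild-type PGCs (1 of the 11 transcripts higher, 0 lower). The part of either marker set in these differences was not tested.

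mRpS14, the member with the largest wild-type change, had 11.14, 11.10 and 11.17 in smaug-mutant PGCs at 1 to 3 h, against 9.77, 9.49, 9.56 and 9.55 in wild-type PGCs (log2 difference 1.55, SE 0.15, adjusted p = 0.000908). It reached 12.17, 11.62 and 11.79 in the mutant and 11.88, 11.92, 11.82 and 11.71 in wild type at 3 to 5 h, where the groups overlapped. mRpL13, a protein bound early in assembly in bacteria, had 10.76, 10.86 and 11.14 in smaug-mutant PGCs at 1 to 3 h and 9.87, 9.86, 9.56 and 9.60 in wild-type PGCs (log2 difference 1.20, SE 0.17, adjusted p = 0.00376). At 3 to 5 h mRpL13 had 11.13, 11.06 and 10.95 in the mutant and 11.38, 11.05, 11.19 and 11.29 in wild type, and the groups overlapped. mRpS17 had 11.75, 11.96 and 11.99 in smaug-mutant PGCs at 1 to 3 h and 11.04, 10.72, 10.58 and 10.27 in wild-type PGCs (log2 difference 1.24, SE 0.21, adjusted p = 0.00639). In all 3, every mutant sample at 1 to 3 h lay above every wild-type sample of that age.

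mRpL35, a large-subunit protein with a bacterial relative, had 9.88, 9.85 and 10.11 in smaug-mutant and 9.25, 8.76, 8.84 and 8.92 in wild-type PGCs (log2 difference 1.01, SE 0.18, adjusted p = 0.00743), and mRpL48 had 10.51, 10.98 and 10.74 in smaug-mutant and 9.71, 9.46, 9.94 and 9.45 in wild-type PGCs (log2 difference 1.11, SE 0.20, adjusted p = 0.00776). Outside the list, mRpL38, a large-subunit protein particular to mitochondria, was higher in the mutant at 1 to 3 h, with 12.12, 12.33 and 12.30 against 11.28, 10.80, 11.13 and 11.36 in wild type (log2 difference 1.11, SE 0.18, adjusted p = 0.00627). mRpS2 was also higher, with 10.22, 10.36 and 10.38 in the mutant, against 9.51, 9.15, 9.03 and 8.98 in wild type (log2 difference 1.15, SE 0.18, adjusted p = 0.00488). The remaining higher members were mRpL55 (1.34) and mRpS10 (1.23). The 3 lower members were on the expressed list, of which 8.91% was lower. mRpL12 had 13.02, 13.18 and 13.37 in smaug-mutant PGCs, against 14.37, 14.33, 14.69 and 14.42 in wild-type PGCs (log2 difference -1.26, SE 0.17, adjusted p = 0.00288). mRpS11-RA had 14.44, 14.01 and 14.35 in smaug-mutant PGCs and 15.52, 15.42, 15.35 and 15.36 in wild-type PGCs (log2 difference -1.15, SE 0.17, adjusted p = 0.00373). The other was mRpS24, described below. Each of the 3 had all mutant samples below all wild-type samples.

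**Figure D3:**
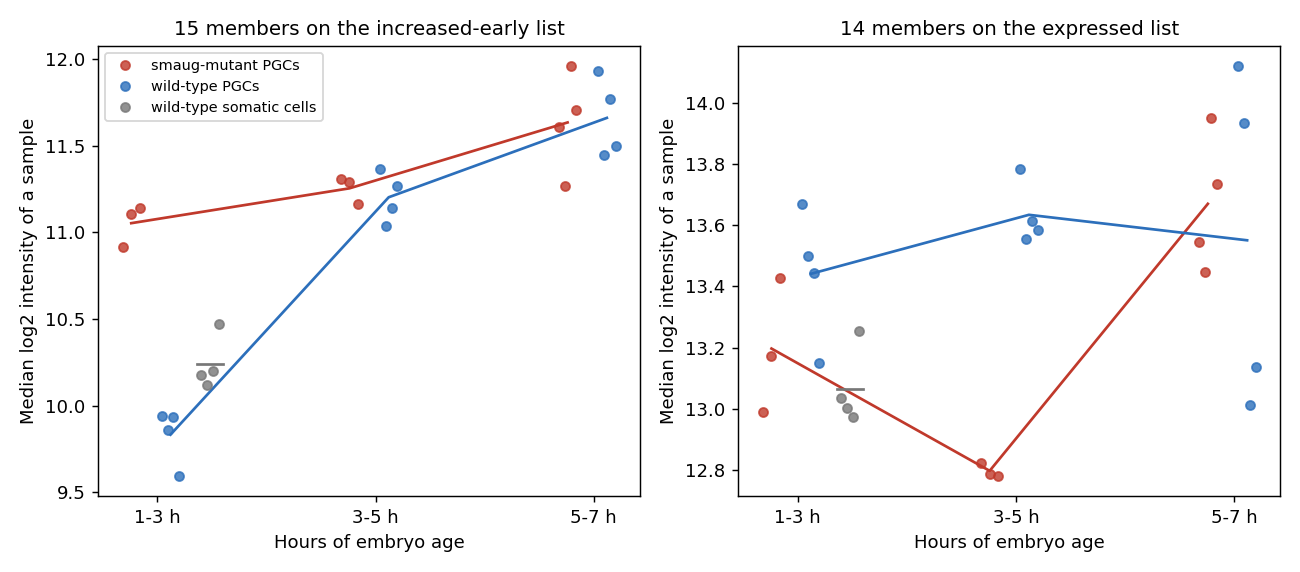
Each point is the median log2 intensity of 1 sample over the members of a list, by hours of embryo age, and lines join the means of the samples in smaug-mutant and wild-type PGCs. Over the 15 members on the increased-early list smaug-mutant samples lay at 10.92 to 11.14 at 1 to 3 h, against 9.60 to 9.94 in wild type, and over the 14 members on the expressed list smaug-mutant samples at 3 to 5 h lay at 12.78 to 12.82, against 13.56 to 13.78 in wild type.

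At 3 to 5 h more members were lower than higher in the mutant, and mRpL12, mRpS11-RA, mRpL38 and mRpS2 were called in the same direction as at 1 to 3 h. In smaug-mutant PGCs 10 members were lower than in wild type, against 7.83% of all transcripts, and 2 were higher, against 8.77% of all (10 without the fold limit, against 16.2% of all). The lower members were mRpL1, mRpL11, mRpL12, mRpL15, mRpL24, mRpL39, mRpL46, mRpS11-RA, mRpS11-RB and mRpS31. All but mRpL46 are on the expressed list, of whose 14 members 9 were lower, whereas 10.5% of all 1941 transcripts on that list were lower. Over the 14 members the median difference was -1.14, and over the 1941 transcripts -0.04. mRpS11-RB had 13.18, 13.48 and 13.25 in smaug-mutant PGCs, against 15.57, 15.02, 15.44 and 15.38 in wild-type PGCs (log2 difference -2.05, SE 0.17, adjusted p = 0.000273). The other transcript of the gene, mRpS11-RA, had 13.31, 13.34 and 13.36 in smaug-mutant and 15.21, 14.83, 15.08 and 15.17 in wild-type PGCs (log2 difference -1.73, SE 0.14, adjusted p = 0.00024). The 2 transcripts are of the same gene and their probes may share sequence, so they are not independent.

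mRpL12 had 12.71, 12.36 and 13.04 in smaug-mutant PGCs at 3 to 5 h and 14.26, 14.17, 14.51 and 14.43 in wild-type PGCs (log2 difference -1.64, SE 0.19, adjusted p = 0.000818). mRpL11, which lies at the base of the same stalk in bacteria, had 12.60, 12.84 and 12.83 in smaug-mutant and 14.60, 14.03, 14.02 and 14.29 in wild-type PGCs (log2 difference -1.48, SE 0.18, adjusted p = 0.00107). mRpL1 had 12.96, 13.09 and 12.85 in smaug-mutant and 14.30, 14.46, 14.25 and 14.32 in wild-type PGCs (log2 difference -1.37, SE 0.13, adjusted p = 0.000409). No mutant sample reached the lowest wild-type sample in any of these 3 stalk proteins. mRpL39, a large-subunit protein particular to mitochondria, had 12.19, 12.15 and 12.06 in smaug-mutant and 13.43, 13.36, 13.42 and 13.56 in wild-type PGCs (log2 difference -1.31, SE 0.12, adjusted p = 0.000402). mRpL24, whose bacterial relative starts the assembly of the large subunit, had 13.09, 13.18 and 13.52 in smaug-mutant and 14.40, 14.46, 14.51 and 14.46 in wild-type PGCs (log2 difference -1.19, SE 0.15, adjusted p = 0.00103). mRpL15, a large-subunit protein with a bacterial relative, had 12.18, 12.81 and 12.38 in smaug-mutant and 13.69, 13.40, 13.60 and 13.39 in wild-type PGCs (log2 difference -1.06, SE 0.18, adjusted p = 0.00429). The groups were separate in all of these too.

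The 2 higher members at 3 to 5 h were also higher in the mutant at 1 to 3 h. mRpL38 had 12.13, 12.14 and 12.32 in smaug-mutant and 11.15, 10.99, 10.94 and 11.39 in wild-type PGCs (log2 difference 1.08, SE 0.16, adjusted p = 0.00209), and mRpS2 had 10.54, 10.37 and 10.34 in smaug-mutant and 9.76, 9.61, 9.003 and 9.14 in wild-type PGCs (log2 difference 1.04, SE 0.21, adjusted p = 0.00893). All members called at 3 to 5 h compare a Cy3 with a Cy5 group, and the dye cannot be told apart from the genotype there. The somatic marker sums were 12.76 to 13.17 in smaug-mutant and 14.16 to 14.57 in wild-type PGCs (4 of the 7 markers lower, 1 higher). The PGC marker sums were 17.88 to 18.04 in smaug-mutant and 16.74 to 16.97 in wild-type PGCs (6 of the 11 transcripts higher, 0 lower). The study lists orb among transcripts whose decay depends on Smaug, so decay and cell content cannot be told apart in the PGC marker sums. The part of either marker set was not tested. Cytoplasmic ribosomal protein transcripts, of which 91 of 107 are on the same expressed list, were compared in the same samples. Of the 107, 5 were higher and 0 lower, against 8.77% and 7.83% of all transcripts. This comparison cannot tell the dye from the genotype either.

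**Figure D4:**
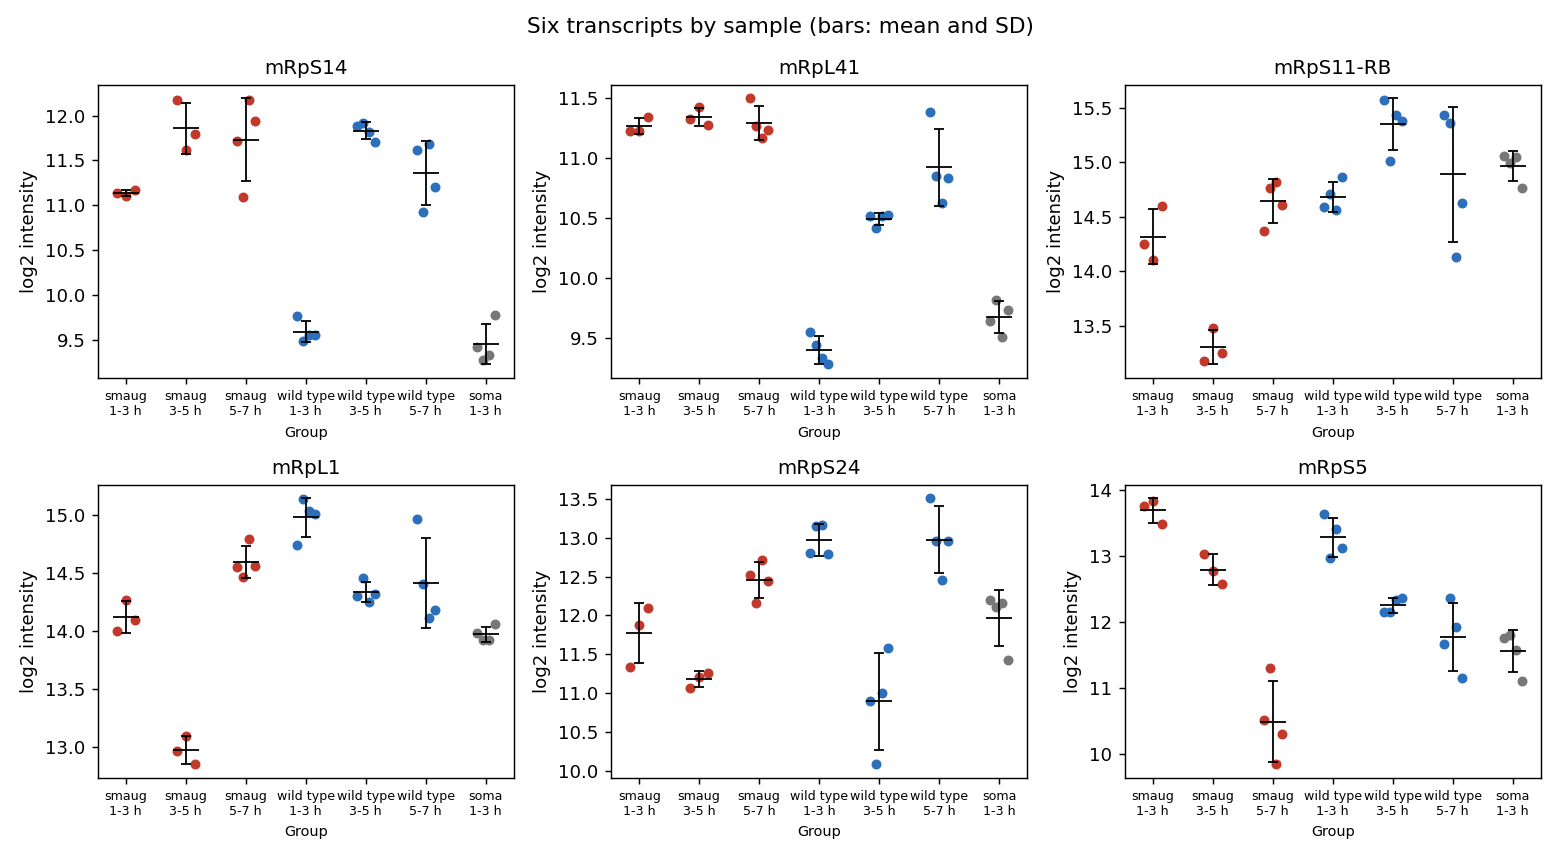
Log2 intensity of 6 transcripts in each sample (points), with the mean and SD of each group. Groups of smaug-mutant PGCs stand left of wild type. At 1 to 3 h mRpS14 and mRpL41 were higher in smaug-mutant than in wild-type PGCs, mRpS11-RB and mRpL1 were lowest in smaug-mutant PGCs at 3 to 5 h, mRpS24 was lowest at 3 to 5 h in both genotypes, and mRpS5 was lowest in smaug-mutant PGCs at 5 to 7 h.

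In smaug-mutant PGCs 15 of 46 members were higher at 5 to 7 h than at 3 to 5 h, against 6.03% of all transcripts, and 1 was lower, against 6.25% of all (3 without the fold limit, against 8.8% of all). The 15 were 9 large-subunit and 6 small-subunit members: mRpL1, mRpL11, mRpL12, mRpL19, mRpL24, mRpL27, mRpL36, mRpL39, mRpL46, mRpS2, mRpS11-RA, mRpS11-RB, mRpS16, mRpS24 and mRpS31. The smaug arrays did not enter the naming, and 9 of the 14 members on the expressed list were higher, against 4.43% of the 1941 transcripts on it. mRpL1 had 14.56, 14.46, 14.79 and 14.57 at 5 to 7 h, against 12.96, 13.09 and 12.85 at 3 to 5 h (log2 difference 1.63, SE 0.17, adjusted p = 0.00271). mRpS16, a small-subunit protein with a bacterial relative, had 11.60, 11.32, 12.04 and 11.71 at 5 to 7 h and 10.23, 10.47 and 10.16 at 3 to 5 h (log2 difference 1.38, SE 0.21, adjusted p = 0.00681). mRpS11-RB had 14.37, 14.77, 14.82 and 14.61 at 5 to 7 h and 13.18, 13.48 and 13.25 at 3 to 5 h (log2 difference 1.34, SE 0.18, adjusted p = 0.0055). All later samples lay above all earlier ones in these 3.

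This comparison again sets Cy5 samples against Cy3 samples, and it shares the 3-to-5 h samples with the earlier change, so that the values of the 2 changes are not independent. Somatic marker sums were 11.73 to 12.17 at 5 to 7 h and 12.76 to 13.17 at 3 to 5 h (2 of the 7 markers higher, 3 lower). Of the 114 transcripts on the soma-enriched list 43.9% were higher at 5 to 7 h, with sample medians of 8.47 to 9.01 at 5 to 7 h and 7.22 to 7.59 at 3 to 5 h, and the part of either was not tested. Where 5 to 7 h was set against 1 to 3 h, both Cy5, 8 members were higher, against 9.62% of all transcripts, and 1 was lower, against 9.71%. Of the 14 members on the expressed list 1 was then called higher, against 2.99% of the 1941 transcripts on it. The change was above 0 for 13 of the 14, with a median of 0.56, against -0.07 over the 1941. For mRpL1 the 3 ages in smaug-mutant PGCs read 14.002, 14.27 and 14.09 at 1 to 3 h, 12.96, 13.09 and 12.85 at 3 to 5 h and 14.56, 14.46, 14.79 and 14.57 at 5 to 7 h, so that the middle group was the lowest. The same held for mRpS11-RA, with 14.44, 14.01 and 14.35 at 1 to 3 h, 13.31, 13.34 and 13.36 at 3 to 5 h and 14.38, 14.56, 14.57 and 14.47 at 5 to 7 h. mRpL24 read 13.62, 13.75 and 13.52 at 1 to 3 h, 13.09, 13.18 and 13.52 at 3 to 5 h and 14.50, 14.29, 14.64 and 14.21 at 5 to 7 h, with 1 sample at 3 to 5 h equal to the lowest at 1 to 3 h to 2 decimals. mRpL11 read 12.96, 13.16 and 13.54, then 12.60, 12.84 and 12.83, then 13.49, 13.59, 14.12 and 13.96 over the same ages.

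Wild-type PGCs had fewer calls in the later interval. At 5 to 7 h 4 members were higher than at 3 to 5 h, against 1.43% of all transcripts, and 0 were lower, against 1.52% of all. At an unadjusted p under 0.05 limma had 2 members lower, against 12.9% of all transcripts, and SAM called 1 lower, against 5.79% of all. The 4 are all on the increased-late list, which these wild-type arrays chose. Set against 1 to 3 h instead, 16 members were higher and 1 was lower in wild type, against 6.42% and 7.65% of all transcripts. That count was 22 higher and 1 lower with replicates 1 and 2 of the later group alone (9.87% and 9.23% of all), and 14 higher and 3 lower with replicates 3 and 4 alone (13.1% and 14.6% of all). mRpL27, whose bacterial relative lies near the site of peptide bond formation, had 12.84, 12.03, 12.59 and 12.48 at 5 to 7 h, against 10.27, 10.23, 10.59 and 10.42 at 3 to 5 h (log2 difference 2.11, SE 0.22, adjusted p = 0.0193). mRpL36, a small large-subunit protein with a bacterial relative, had 12.21, 11.50, 11.24 and 11.12 at 5 to 7 h and 9.80, 9.52, 9.27 and 9.93 at 3 to 5 h (log2 difference 1.89, SE 0.29, adjusted p = 0.031). mRpS2, a small-subunit protein with a bacterial relative, had 11.13, 10.35, 11.21 and 10.55 at 5 to 7 h and 9.76, 9.61, 9.003 and 9.14 at 3 to 5 h (log2 difference 1.43, SE 0.28, adjusted p = 0.0431). The later samples lay above the earlier ones in all 3, and in mRpS24 as given below. All 4 were also called with replicates 1 and 2 alone and with replicates 3 and 4 alone, but none was called when any 1 of the 3-to-5 h samples was left out. Those fits called 0% of all transcripts higher and 0% lower, so the loss was not particular to these 4.

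The same 4 were higher in smaug-mutant PGCs between these ages, where 24.7% of the 174 transcripts on the increased-late list were higher. mRpL27 had 12.33, 11.87, 12.42 and 12.04 at 5 to 7 h, against 11.29, 10.84 and 10.94 at 3 to 5 h (log2 difference 1.14, SE 0.21, adjusted p = 0.0105). mRpL36 had 12.05, 11.65, 11.88 and 12.08 at 5 to 7 h, against 10.73, 10.59 and 10.57 at 3 to 5 h (log2 difference 1.29, SE 0.18, adjusted p = 0.00533). mRpS2 had 11.62, 10.96, 11.54 and 11.63 at 5 to 7 h and 10.54, 10.37 and 10.34 at 3 to 5 h (log2 difference 1.02, SE 0.21, adjusted p = 0.0167). The later smaug samples exceeded the earlier ones in each.

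With replicates 1 and 2 alone, 8 members were higher and 0 lower at 5 to 7 than at 3 to 5 h in wild type, against 4.38% and 3.25% of all transcripts. With replicates 3 and 4 alone 5 were higher and 4 lower, against 12.3% and 14.4% of all. mRpL54, higher in PGCs than in somatic cells at 1 to 3 h, split the same way, with 12.64, 12.65, 10.56 and 10.74 at 5 to 7 h, against 12.88, 12.97, 13.15 and 13.21 at 3 to 5 h (log2 difference -1.41, SE 0.52, adjusted p = 0.155). It is on the PGC-enriched and decreased-late lists, so both directions were fixed by the naming. SAM called it lower in this late change. Its values in replicates 3 and 4 were in the range of the somatic cells, and these are the samples with the high somatic marker sums, whose part in the result was not tested.

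The difference between genotypes in the later change was called higher (more increase in the mutant) for 7 members, against 1.6% of all transcripts, and lower for 1, against 1.55% of all. The 7 were mRpL1, mRpL11, mRpL15, mRpL24, mRpL39, mRpS11-RA and mRpS11-RB, all on the expressed list, of which 5% was called higher. mRpS11-RB changed by 1.34 in smaug-mutant and -0.46 in wild-type PGCs (log2 difference 1.80, SE 0.39, adjusted p = 0.0291 for the difference between genotypes). mRpS11-RA changed by 1.16 in smaug-mutant and -0.56 in wild-type PGCs (log2 difference 1.71, SE 0.37, adjusted p = 0.0291). mRpL15 changed by 0.99 in smaug-mutant and -0.69 in wild-type PGCs (log2 difference 1.68, SE 0.41, adjusted p = 0.0435), and with 13.52, 12.996, 11.91 and 12.88 its wild-type samples at 5 to 7 h were far apart. All 7 were also called with wild-type replicates 1 and 2 alone and with replicates 3 and 4 alone, but only 2 were left without any 1 smaug-mutant sample at 3 to 5 h. Fits without 1 of those samples called 0.367% to 0.421% of all transcripts higher. The counts were 7 higher and 2 lower with replicates 1 and 2 alone (3.22% and 3.45% of all transcripts), and 15 higher and 2 lower with replicates 3 and 4 alone (13.6% and 11.6% of all). Between 1 to 3 and 5 to 7 h, with no Cy3 group, 1 member was called higher (2.08% of all transcripts) and 3 were called lower (2.63%). With wild-type replicates 1 and 2 alone these were 0 higher (4.11%) and 11 lower (5.34%), and with replicates 3 and 4 alone 12 higher (12.9%) and 5 lower (11.7%).

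At 5 to 7 h none of the 46 members was called between smaug-mutant and wild-type PGCs, against 1.5% of all transcripts higher and 0.993% lower. At an unadjusted p under 0.05 limma had 1 member higher and 2 lower, against 12% and 9.9% of all transcripts, and SAM called 1 higher and 0 lower, against 5.41% and 0.788% of all. The member differences ran from -1.29 to 1.24 with a median of 0.13, and their SEs from 0.22 to 0.54. With wild-type replicates 3 and 4 alone 7 members were called higher, against 13.4% of all transcripts, and with replicates 1 and 2 alone 0, against 2.44% of all. Somatic marker sums were 11.73 to 12.17 in smaug-mutant and 13.33 to 15.32 in wild-type PGCs, and their part was not tested. Members that had differed at the earlier ages had overlapping samples here: mRpL23 had 11.80, 11.21, 11.23 and 11.46 in smaug-mutant and 11.93, 11.44, 10.64 and 10.002 in wild-type PGCs, and mRpL12 had 13.60, 13.31, 13.98 and 14.07 in smaug-mutant and 14.54, 14.54, 13.16 and 13.79 in wild-type PGCs. mRpL41 had 11.50, 11.27, 11.17 and 11.23 in smaug-mutant and 11.38, 10.85, 10.63 and 10.84 in wild-type PGCs. mRpL39 had 13.46, 13.15, 13.49 and 13.22 in smaug-mutant and 13.71, 13.51, 12.86 and 13.02 in wild-type PGCs. mRpL19 was the only member whose samples did not overlap between the genotypes, and the matching share of all transcripts was not computed. The wild-type group of this age held the replicate pairs that were unlike each other.

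Some small-subunit members followed courses of their own. mRpS24, a small-subunit protein, was called in 6 comparisons. It is on the decreased-early and increased-late lists, so the directions of its 2 wild-type changes were fixed by the naming. In wild-type PGCs it read 12.80, 13.15, 13.16 and 12.79 at 1 to 3 h, 10.89, 10.09, 11.01 and 11.59 at 3 to 5 h and 13.51, 12.96, 12.45 and 12.96 at 5 to 7 h, low in the middle group (log2 difference -2.08, SE 0.29, adjusted p = 0.00113 between 3 to 5 and 1 to 3 h, and log2 difference 2.08, SE 0.36, adjusted p = 0.0375 between 5 to 7 and 3 to 5 h). In smaug-mutant PGCs it read 11.34, 11.88 and 12.10 at 1 to 3 h, 11.07, 11.21 and 11.26 at 3 to 5 h and 12.51, 12.16, 12.72 and 12.44 at 5 to 7 h, with a called increase in the later interval (log2 difference 1.28, SE 0.19, adjusted p = 0.00616). At 1 to 3 h it was lower in smaug-mutant than in wild-type PGCs (log2 difference -1.20, SE 0.23, adjusted p = 0.00949), and the difference between genotypes in the early change was positive (log2 difference 1.49, SE 0.41, adjusted p = 0.0393), a call lost in 9 of the 14 fits that left out 1 sample. At 1 to 3 h wild-type PGCs, with the values above, were higher than somatic cells, which had 12.19, 12.10, 12.16 and 11.43 (log2 difference 1.01, SE 0.21, adjusted p = 0.00246).

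mRpS5 fell in both genotypes. It is on the decreased-early list, so the direction of its early change in wild type was fixed by the naming. In smaug-mutant PGCs it read 13.76, 13.84 and 13.49 at 1 to 3 h, 13.04, 12.77 and 12.58 at 3 to 5 h and 10.51, 11.31, 9.84 and 10.30 at 5 to 7 h. In wild-type PGCs it read 13.64, 12.97, 13.41 and 13.12 at 1 to 3 h, 12.16, 12.16, 12.33 and 12.36 at 3 to 5 h and 11.67, 12.37, 11.92 and 11.14 at 5 to 7 h. The early decrease passed the test in wild type (log2 difference -1.03, SE 0.17, adjusted p = 0.00256), and the early change in the mutant stayed under the fold limit (log2 difference -0.90, SE 0.19, adjusted p = 0.0298). The late decrease passed the test in the mutant (log2 difference -2.31, SE 0.34, adjusted p = 0.00612), and the late change in wild type was not called (log2 difference -0.48, SE 0.27, adjusted p = 0.319). The genotypes differed in the late change (log2 difference -1.83, SE 0.44, adjusted p = 0.0419), a call lost in 11 of the 15 fits that left out 1 sample, and not past the threshold in the early one (log2 difference 0.13, SE 0.26, adjusted p = 0.798). mRpS5 was the only member called lower, past the 2-fold limit, in smaug-mutant PGCs at 5 to 7 h than at 3 to 5 h.

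Other transcripts of mitochondrial function were read from the same samples. The 6 mRNAs of the mitochondrial genome with a named row were at 1 to 3 h all higher in smaug-mutant than in wild-type PGCs, with a median difference of 1.68, and 4 were higher at 3 to 5 h (median 1.55) and 0 at 5 to 7 h (median -0.04). Of all transcripts, 7.46% were higher at 1 to 3 h, 8.77% at 3 to 5 h and 1.5% at 5 to 7 h. Mitochondrially encoded mRNAs are the templates of the ribosome studied here. mt:CoII, a cytochrome c oxidase subunit, averaged 14.94 ± 0.29 in smaug-mutant PGCs (SD, n = 3) and 13.09 ± 0.19 in wild-type PGCs (SD, n = 4) at 1 to 3 h, and limma gave a log2 difference of 1.85 with an adjusted p of 0.0013. At 3 to 5 h it averaged 15.59 ± 0.19 in smaug-mutant and 13.37 ± 0.34 in wild-type PGCs (log2 difference 2.22, adjusted p = 0.000406). Between 5 to 7 and 3 to 5 h in the mutant, 4 of the 6 were lower (median -1.11), against 6.25% of all transcripts, while the members' median was 0.44. Of the 6, 4 were lower in PGCs than in somatic cells at 1 to 3 h, against 17.5% of all transcripts. This comparison, mutant against wild type at 3 to 5 h and the late change in the mutant each set a Cy3 against a Cy5 group. In each of them the called mitochondrial mRNAs were higher in the Cy3 group. The dye cannot be told apart there from cell type, genotype or age. At 1 to 3 h PGCs of both genotypes carried Cy5 by the labels.

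Factors of mitochondrial replication, transcription and translation had a named row for 10 of 18 genes. Of the 10, 6 were higher and 0 lower in PGCs than in somatic cells, against 18.5% and 17.5% of all transcripts. Only transcripts on the study's wild-type lists have a name, so these counts rest in part on the naming. The somatic cells are a Cy3 group by the labels. mtRNApol, the mitochondrial RNA polymerase, averaged 10.34 ± 0.39 in PGCs and 8.71 ± 0.36 in somatic cells (SD, n = 4 each, adjusted p = 0.00036). None of the 10 was called in the early interval of either genotype. For wild type this rests in part on the naming, since 0 of the 10 are on the increased-early list. Of all transcripts, 9.02% were higher and 8.22% lower there in wild type, and 5.35% and 5.56% in the mutant. mEFTs, a mitochondrial elongation factor, was higher in smaug-mutant than in wild-type PGCs, both at 1 to 3 h (log2 difference 1.30, adjusted p = 0.00663) and at 3 to 5 h (1.45, adjusted p = 0.00114). The mutant group at 3 to 5 h is the Cy3 group.

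Nuclear-encoded subunits of the respiratory chain and ATP synthase had 20 transcripts of 17 genes. Of these, 5 were higher and 1 lower at 3 to 5 than at 1 to 3 h in wild-type PGCs, against 9.02% and 8.22% of all transcripts. On the increased-early list were 5 of the 20, so this count rests in part on the naming. In smaug-mutant PGCs 0 were called, against 5.35% of all transcripts higher and 5.56% lower. At 1 to 3 h 5 were higher and 0 lower in smaug-mutant than in wild-type PGCs, against 7.46% and 6% of all transcripts. ox, a small subunit of the ubiquinol-cytochrome c reductase complex, averaged 13.27 ± 0.35 in smaug-mutant PGCs (SD, n = 3) and 10.89 ± 0.33 in wild-type PGCs (SD, n = 4) at 1 to 3 h (log2 difference 2.39, adjusted p = 0.0012). The difference between genotypes in the early change was called lower for 3 of the 20, among them ox (-1.89, adjusted p = 0.00664) and ATPsyn-Cf6 (-1.84, adjusted p = 0.000463), and higher for 0. Of all transcripts, 3.24% were called lower and 3.85% higher.

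Cytoplasmic ribosomal proteins, the counterparts of the members in the ribosome of the cytoplasm, had 107 transcripts of 78 genes. Of these, 15 were higher and 1 lower at 3 to 5 than at 1 to 3 h in wild-type PGCs, against 9.02% and 8.22% of all transcripts. On the increased-early list were 14 of the 107, so this count rests in part on the naming. In smaug-mutant PGCs 3 were higher and 0 lower, against 5.35% and 5.56% of all transcripts. At 1 to 3 h 19 were higher and 2 lower in smaug-mutant than in wild-type PGCs, against 7.46% and 6% of all transcripts. Their median difference was 0.59, next to 0.32 over the 46 members. RpL38 averaged 13.79 ± 0.24 in smaug-mutant PGCs (SD, n = 3) and 11.74 ± 0.42 in wild-type PGCs (SD, n = 4) at that age (2.05, adjusted p = 0.00225). The early change was called lower in the mutant than in wild type for 13 of the 107 and higher for 0, against 3.24% and 3.85% of all transcripts. These lists, like the members, could be named only through the study's wild-type lists.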

How the data were processed

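PGCs and somatic cells were sorted from embryos as GFP-positive and GFP-negative cells. RNA was amplified with WT-Ovation Pico, labelled with Cy3 or Cy5, hybridized to custom NimbleGen arrays, scanned on a GenePix scanner, quantified in Nimblescan and normalized by the RMA quantile method in ArrayStar. The deposited values, 1 intensity per transcript on a linear scale, were made by the authors in this way. Each hybridization took a pair of samples, and which ones shared it is not given in the sources used here. The transcript annotation and genome build are not given either.

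Log2 was taken of each intensity. Rows were named by matching group means with the entries of the study's supplementary lists as keys. Of 68 entries with an mRpL or mRpS symbol, 67 matched 1 row and 1 (mRpL30) matched several and was left out. In all, 5395 of 16623 rows had a name. Blank symbols were filled from RefSeq. The members and lists were chosen with earlier results of these data known.

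Groups were compared with limma 3.58.1 (R 4.3.3) on the samples of the groups compared, over 16623 rows, with Benjamini-Hochberg adjustment. Members described sample by sample are the 3 with the largest called difference in each direction of each of 10 comparisons and those called in 3 or more. SAM was written anew (Python 3.11.15, numpy 2.4.6), with a false discovery rate of 5% and linear means. Limma and SAM were tested on simulated data with 200 changed rows. Alternatives were SAM, all 7 groups in 1 fit, 2 scalings, a filter on dim rows, no fold limit, the replicate number as a block, each sample left out, and each pair of the wild-type 5-to-7 h replicates alone. The change between 1 to 3 and 5 to 7 h was added after seeing the data, also with each of those pairs alone. The number of arrays limits the precision. No sequences are shown.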

Additional observations from a re-analysis of the deposited data

Results flagged for a closer look

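Among the members described sample by sample, 7 values lay far from the other 3 of their group. For these members and for the median over all members 125 groups of 4 samples were looked at, and chance gives about 1 in 20 groups. Replicate 4 of the somatic cells held 3 of them: mRpS24 at 11.43 (the others 12.10 to 12.19), mRpS25 at 12.01 (11.05 to 11.10) and mRpS2 at 9.84 (9.40 to 9.46). The others were mRpL54 in 1-to-3 h wild-type PGCs, replicate 1, at 12.90 (12.44 to 12.45), mRpL54 in smaug-mutant PGCs at 5 to 7 h, replicate 1, at 12.13 (11.85 to 11.86), mRpS2 in smaug-mutant PGCs at 5 to 7 h, replicate 2, at 10.96 (11.54 to 11.63), and mRpL41 in 3-to-5 h wild-type PGCs, replicate 2, at 10.42 (10.51 to 10.53).

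The genotypes differed in the change between 1 to 3 and 3 to 5 h, by limma's test of smaug-mutant minus wild-type change, in 12 members: mRpS11-RB (-1.68), mRpS14 (-1.52), mRpS25 (-1.48), mRpS17 (-1.43), mRpL13 (-1.38), mRpL23 (-1.36), mRpS26 (-1.36), mRpS16 (-1.30), mRpL35 (-1.13), mRpL41 (-1.02), mRpL4 (-1.001) and mRpS24 (1.49). In the change between 3 to 5 and 5 to 7 h they differed in 8: mRpS11-RB (1.80), mRpS11-RA (1.71), mRpL15 (1.68), mRpL24 (1.62), mRpL1 (1.54), mRpL11 (1.54), mRpL39 (1.36) and mRpS5 (-1.83). mRpS11-RB is on both lists with opposite signs, and its values in smaug-mutant PGCs at 3 to 5 h, the Cy3 group, enter both.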

How the results depend on the processing

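Counts of members called are given here as higher and lower, with the reported count in brackets. Of 162 counts under a changed setting, 114 were within 1.5 times the reported one. The replicate numbers did not pair the samples (same-number correlations of deviations between -0.14 and 0.22). With the number as a block, the smaug-mutant late change had 0 higher (15) and 0 lower (1), the wild-type late change 0 higher (4), the smaug-mutant early change 1 lower (2), mutant against wild type at 1 to 3 h 5 higher (12), the early difference between genotypes 0 higher (1), and the late one 2 higher (7) and 0 lower (1). Over all transcripts the block gave 0% higher in the wild-type late change and 0.313% higher in the smaug-mutant late change. SAM gave 1 lower (0) in the wild-type late change and 1 higher (0) at 5 to 7 h. With all 7 groups in 1 fit, the wild-type late change had 1 lower (0), 5 to 7 h had 1 higher (0) and 1 lower (0), and the differences between genotypes had 7 lower (11) early and 11 higher (7) late. Median centring gave 4 lower (2) in the smaug-mutant early change. A second quantile normalization gave 2 lower (1) against somatic cells, 1 lower (2) in the wild-type early change, 1 lower (2) in the smaug-mutant early change and 5 lower (3) at 1 to 3 h. Without a fold limit there were 10 lower (1) against somatic cells, 24 higher (15) and 4 lower (2) in the wild-type early change, 1 higher (0) and 5 lower (2) in the smaug-mutant early change, 3 lower (1) in its late change, 7 lower (3) at 1 to 3 h, 10 higher (2) at 3 to 5 h and 3 higher (1) in the early difference between genotypes. With wild-type 5-to-7 h replicates 1 and 2 alone there were 8 higher (4) in the wild-type late change and 2 lower (1) in the late difference between genotypes. With replicates 3 and 4 alone there were 4 lower (0), 7 higher (0) at 5 to 7 h, and 15 higher (7) and 2 lower (1) in that difference. Taking 1 to 3 h in place of 3 to 5 h for the late changes, chosen after seeing the data, gave 16 higher (4) and 1 lower (0) in wild type, 8 higher (15) in the mutant, and 1 higher (7) and 3 lower (1) in the difference. With that change and replicates 1 and 2 alone there were 22 higher and 1 lower in wild type and 0 higher and 11 lower in the difference, and with replicates 3 and 4 alone 14 higher and 3 lower, and 12 higher and 5 lower. There mRpS24 in wild type was -0.0032 with all samples and -0.27 with replicates 3 and 4 alone, against 2.08, and mRpS11-RB in the difference was -0.39 with replicates 1 and 2 alone, against 1.80.

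Leaving out 1 sample at a time gave 9 to 11 higher and 1 to 2 lower against somatic cells, 13 to 16 higher and 1 to 2 lower in the wild-type early change, 0 to 4 higher and 0 lower in its late change, 0 higher and 1 to 3 lower in the smaug-mutant early change, 12 to 16 higher and 1 lower in its late change, 11 to 15 higher and 2 to 4 lower at 1 to 3 h, 1 to 3 higher and 9 to 10 lower at 3 to 5 h, 0 of either kind at 5 to 7 h, 0 to 1 higher and 9 to 13 lower in the early difference between genotypes, and 2 to 9 higher and 0 to 2 lower in the late one. The 4 wild-type late calls were all lost without any 1 of the 3-to-5 h samples, where 0% of all transcripts were called. Without 5-to-7 h replicate 1 there were 2 left, and 1 without replicate 4. The 7 late differences became 2 without wild-type 3-to-5 h replicate 1 or 4 or any smaug-mutant 3-to-5 h sample, 4 without wild-type 3-to-5 h replicate 3 or smaug-mutant 5-to-7 h replicate 1, and 3 without its replicate 3 or 4. The 1 lower late difference (mRpS5) was lost without any 1 3-to-5 h sample of either genotype, wild-type 5-to-7 h replicate 3 or smaug-mutant 5-to-7 h replicate 1, 3 or 4, and became 2 without wild-type 5-to-7 h replicate 2. The 1 higher early difference (mRpS24) was lost without wild-type 1-to-3 h replicate 2 or 3, wild-type 3-to-5 h replicate 1 or 3, any smaug-mutant 3-to-5 h sample, or smaug-mutant 1-to-3 h replicate 1 or 2. A count of 2 lower became 1 without wild-type 1-to-3 h replicate 1 or 3 (wild-type early change) and without smaug-mutant 3-to-5 h replicate 3 or 1-to-3 h replicate 1 or 3 (mutant early change), and the 2 higher at 3 to 5 h became 1 without wild-type replicate 3 or smaug-mutant replicate 1. Lower than in somatic cells were 2 without wild-type 1-to-3 h replicate 1. Of 1607 repeats of 98 single-member results, 1375 kept their call, 229 kept the direction and lost the call, and 3 turned. The causes were not tested. Signal above background limits dim transcripts, and all 46 members passed the filter on dim rows.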
